A study of Homo sapiens with 6 samples.

Results

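The 10 genes described here serve one histone mark, methylation of lysine 36 of histone H3. They were taken by symbol from the deposited count matrix, and all 10 were found among its 35322 symbols and passed the filter on low counts that left 16510 genes for testing. They comprise ZMYND11, the 2 genes that encode histone H3.3, 5 methyltransferases (SETD2, NSD1, NSD2, NSD3 and ASH1L) and 2 further readers of histone marks (ZMYND8 and PSIP1). RNA was sequenced from 22Rv1 cells, a human prostate carcinoma line grown from a xenograft that relapsed after castration. There were 6 libraries in 3 groups of 2: control cells with the genotype WT, and ZM11-kd1 and ZM11-kd2, both given the genotype ZMYND11 knockdown. All were kept in RPMI1640 with fetal bovine serum, and the labels give no treatment for any of them. By the study's account the knockdowns were stable lines that expressed short hairpin RNAs (shRNAs) from an integrated lentiviral vector under puromycin selection. The study describes the cells sequenced as carrying ZMYND11 or control shRNAs, whereas the labels call the control cells WT and name no hairpin for ZM11-kd1 or ZM11-kd2. Nothing says that the 2 libraries of a group came from separate cultures, so the p-values measure the spread between libraries, which may be technical.

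Methyl groups are placed on lysine 36 in steps. SETD2 travels with elongating RNA polymerase II and adds the trimethyl form over gene bodies, whereas NSD1, NSD2 and NSD3 make the dimethyl form and ASH1L methylates the same lysine near active genes. ZMYND11 (also called BS69) reads the trimethyl mark through a PWWP domain and prefers it on the variant H3.3, which is laid down outside DNA replication and is encoded by H3-3A and H3-3B.

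The target sites of the study's ZMYND11 hairpins are shown because they fix where the transcript was meant to be cut. Both lie in coding exons of ZMYND11 on the plus strand of chromosome 10 (GRCh38), and they were taken from the study's oligonucleotide list and placed on the genome by exact match. The capitals mark the bases that pair with the seed of the guide strand, bases 2 to 8.
shRNA-1 ZMYND11: cctgacaactggtTCTGTTAt
shRNA-2 ZMYND11: cgtgtcaactcagACAAAGAa
The site of shRNA-1 is at chr10:240944-240964, in exon 9 of 15, over codons 269 to 275 of 602. The site of shRNA-2 is at chr10:248413-248433, in exon 13, over codons 435 to 442. Both lie upstream of the MYND domain, whose construct in the study ran from codon 562 to codon 598. Neither 21-base site had an exact match in the transcripts of another gene, and the longest run that either shared with a transcript of another of the 10 genes was 9 bases. The 7-base seed site TCTGTTA occurred in the 3′ untranslated region of 1 of the 10 genes (NSD1) and in 14.2% of 18725 genes. The seed site ACAAAGA occurred in that of 2 of the 10 (ZMYND11 and NSD3) and in 15.5% of genes. These matches are descriptions of sequence, and whether a hairpin acted at them was not tested.

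The H3.3 genes are set beside H3C1, a replication-dependent H3 gene, to show how far counts of H3-3A and H3-3B can be told apart. The windows hold codons 32 to 41 of each coding sequence as read from GRCh38 on the coding strand, and the capitals mark codon 37, which encodes lysine 36 once the first methionine is removed.
H3-3A: tctactggaggggtgAAGaaacctcatcgt
H3-3B: tctaccggcggggtgAAGaagcctcatcgc
H3C1: gccaccggcggcgtgAAAaagccccaccgc
The H3-3A window is at chr1:226064445-226064474 on the plus strand, that of H3-3B at chr17:75779052-75779081 on the minus strand and that of H3C1 at chr6:26020583-26020612 on the plus strand. H3-3A and H3-3B encode the same protein, with 0 of 136 codons giving a different residue, yet 88 of their 408 coding bases differ and the longest identical run is 14 bases. H3-3A and H3C1 differ at 5 residues.

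Library totals ran from 26844128 to 38193748 counts, with both control libraries below the 4 knockdown libraries. All 9 luminal prostate markers were counted in every library, with a summed level of 2337 to 3013 CPM (a count divided by the scaled size of its library). Basal epithelial markers summed to at most 0.234 CPM and leukocyte and endothelial markers to at most 0.530 CPM. A list of 5 fibroblast and smooth muscle markers summed to 26.8 to 29.4 CPM in control cells, 78.9 to 79.5 CPM in ZM11-kd1 and 37.8 to 40.0 CPM in ZM11-kd2, most of it from COL1A1. The 10 cycling cell markers all fell in both knockdowns, their summed level going from 1247 and 1252 CPM in control cells to 127 and 121 CPM in ZM11-kd1 and 185 and 170 CPM in ZM11-kd2. In bulk RNA, fewer cells of one kind and less RNA per cell cannot be told apart.

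In control cells the H3.3 genes stood far above the rest on the CPM per kilobase scale (CPM divided by the length of all annotated exons of the gene). H3-3B was at 125 ± 2.29 and H3-3A at 66.0 ± 0.771 CPM per kilobase (mean ± SD, n = 2, as for all levels below). PSIP1 followed at 22.9 ± 0.162, NSD2 at 13.3 ± 0.261 and ZMYND11 at 10.7 ± 0.339. The lower levels were those of ASH1L at 7.89 ± 0.210, NSD3 at 7.70 ± 0.162, SETD2 at 7.30 ± 0.000649, NSD1 at 6.07 ± 0.00619 and ZMYND8 at 5.84 ± 0.0298. ASH1L and NSD3 were neighbours in this order that did not differ beyond their SD. With the longest transcript in place of all exons, SETD2, NSD3 and NSD1 came above ASH1L, at 12.2, 10.9 and 10.1 against 8.93 CPM per kilobase. In ZM11-kd1, ZMYND11 was at 2.08 ± 0.0869 CPM per kilobase beside NSD1 at 1.96 ± 0.167, levels within their spread of each other, and in ZM11-kd2 ZMYND11 was the lowest of the 10 at 1.71 ± 0.0651.

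**Figure D1:**
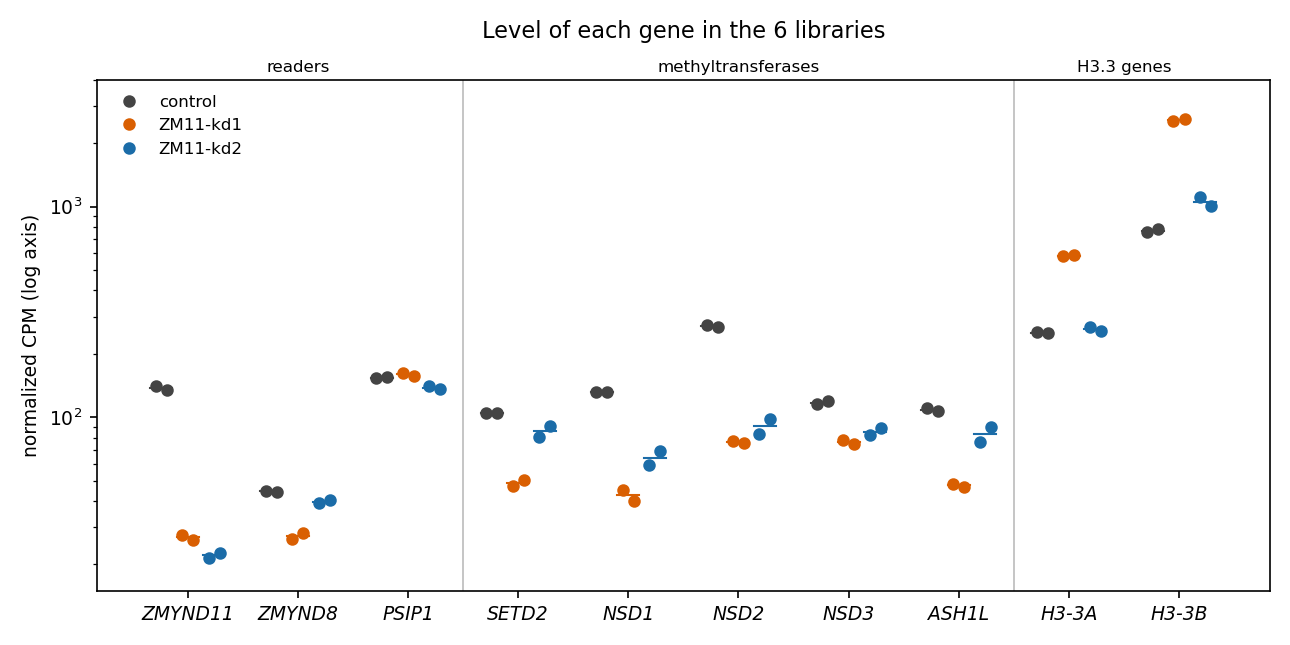
CPM of each of the 10 genes in the 6 libraries, on a log axis; each point is a library, coloured by group, and the short lines are group means. ZMYND11 and the 5 methyltransferases lay below control in both knockdowns, PSIP1 stayed between 136 and 163 CPM in all libraries, and H3-3B reached 2553 and 2602 CPM in ZM11-kd1.

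Of the 10 genes, 2 rose (H3-3A, H3-3B), 7 fell (ZMYND11, ZMYND8 and the 5 methyltransferases) and 1 (PSIP1) was not called in ZM11-kd1 against control by edgeR's quasi-likelihood test at a Benjamini-Hochberg adjusted p below 0.05. Over all genes tested, 78.0% were called, 38.2% as higher and 39.8% as lower, so a call by itself is common in these data. After correction for GC content and length (below), 3 were called higher and 6 lower. In ZM11-kd2 against control, 1 rose (H3-3B), 8 fell and 1 (H3-3A) was not called, against 73.4% of all genes called, 36.5% as higher and 36.9% as lower. After that correction 1 was called higher and 5 lower, with the calls of ZMYND8, SETD2 and ASH1L lost. The median log2 fold change of the 10 was -0.90 in ZM11-kd1 and -0.34 in ZM11-kd2, against -0.03 in both over all genes. The comparisons share the same control libraries and are therefore not independent of each other. The 2 knockdown libraries lay outside the range of the control libraries for 10 of 10 genes in each comparison, which also held for 89.7% and 86.3% of all genes. With a fold of at least 1.5 asked for as well, 9 of the 10 were called in ZM11-kd1 (59.7% of all genes) and 3 in ZM11-kd2 (51.1%), namely ZMYND11, NSD1 and NSD2. These counts rest on TMM scaling. Some alternative settings put ZMYND8 (-0.35), SETD2 (-0.41), ASH1L (-0.52) and NSD3 (0.087) under that fold in ZM11-kd1.

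ZMYND11, the targeted gene (chr10:130088-254637, plus strand), was counted 4283 and 4179 times in control cells, 941 and 773 times in ZM11-kd1 and 770 and 779 times in ZM11-kd2. Every knockdown library held fewer counts than either control library, although the knockdown libraries were the deeper ones. The level left was 19.6% of control in ZM11-kd1 (95% interval 17.7 to 21.6%) and 16.1% in ZM11-kd2 (14.6 to 17.8%). The log2 fold changes were -2.35 (SE 0.07, edgeR adjusted p = 5.00e-13) and -2.64 (SE 0.07, adjusted p = 3.78e-13). After correction for GC content and length they were -1.67 and -2.39, values outside the intervals above in both knockdowns. The fall of ZMYND11 was not at the edge of the distribution: 1276 of the 16510 genes had a lower log2 fold change in ZM11-kd1 and 837 in ZM11-kd2. The guide strand of shRNA-2 has a further seed match in the 3′ untranslated region of ZMYND11 itself, as given above.

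The 5 genes that moved most like ZMYND11 across the 6 libraries were ALDH5A1, WDR90, ALMS1, ADAM22 and FANCG, out of 9933 genes with a mean of at least 3 on the log2 CPM scale. Likeness was the root mean square difference of log2 CPM after each gene was centred on its control mean. It was 0.08 for ALDH5A1, which encodes succinate-semialdehyde dehydrogenase, and ran to 0.15 for FANCG, a DNA crosslink repair gene. The log2 fold changes of ALDH5A1 were -2.31 in ZM11-kd1 and -2.52 in ZM11-kd2, near those of ZMYND11.

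Both H3.3 genes rose in ZM11-kd1, and H3-3B rose in ZM11-kd2 as well. H3-3A (chr1:226061851-226072019, plus strand) was at 255 and 250 CPM in the control libraries, 580 and 591 CPM in ZM11-kd1 and 267 and 256 CPM in ZM11-kd2. The ZM11-kd1 libraries stood apart, whereas the ZM11-kd2 libraries lay just above control. Its log2 fold change was 1.21 (SE 0.05, adjusted p = 2.17e-11) in ZM11-kd1, that is 2.32-fold. In ZM11-kd2 it was 0.05 with a 95% interval of -0.06 to 0.16 (adjusted p = 0.363), and it was not called after correction for GC content and length either (-0.04). Scaled by library totals alone, H3-3A was called lower in ZM11-kd2 (-0.12, adjusted p = 0.0324).

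H3-3B (chr17:75776434-75785893, minus strand) was at 759 and 779 CPM in control cells, 2553 and 2602 CPM in ZM11-kd1 and 1107 and 1007 CPM in ZM11-kd2. The groups did not overlap, with ZM11-kd2 between the other two. The fold was 3.35 in ZM11-kd1 (log2 1.74, SE 0.06, adjusted p = 1.90e-12) and 1.37 in ZM11-kd2 (log2 0.46, SE 0.05, adjusted p = 2.87e-06).

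The balance between the 2 H3.3 genes shifted toward H3-3B in both knockdowns. Within a library, H3-3B had 2.98 and 3.11 counts for each H3-3A count in control cells, 4.40 and 4.40 in ZM11-kd1 and 4.14 and 3.93 in ZM11-kd2. All 4 knockdown libraries lay above both control libraries, a ratio that library scaling cannot alter; it was not tested separately. The summed CPM of both genes was 1022 ± 11.1 in control cells, 3163 ± 42.6 in ZM11-kd1 and 1319 ± 78.4 in ZM11-kd2. H3-3A has 14 annotated processed copies elsewhere in the genome, of which 6 had a row in the matrix, and these added no more than 0.0964% to the H3-3A count of a library. H3-3B shares 179 exonic bases with UNK on the opposite strand, and whether counting used strand was not stated.

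**Figure D2:**
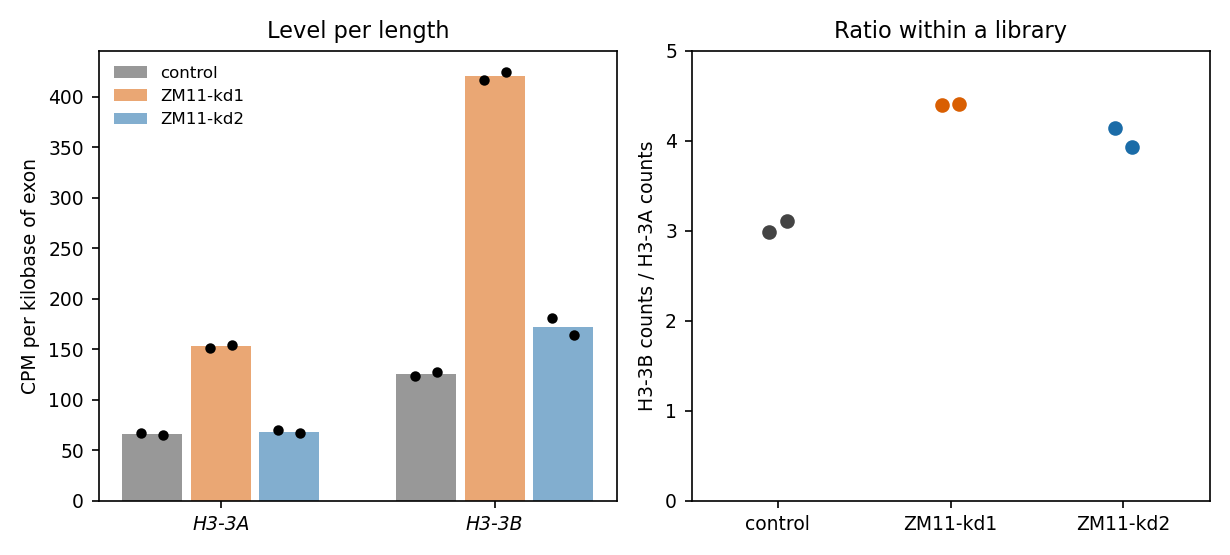
Left, CPM per kilobase of exon for H3-3A and H3-3B; bars are group means and points the 2 libraries of each group. Right, H3-3B counts divided by H3-3A counts in each library; the ratio was near 3 in control cells (2.98 and 3.11) and at or above 3.93 in all 4 knockdown libraries.

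All 5 methyltransferases were called lower in both knockdowns with TMM scaling, and NSD2 had the lowest log2 fold change of the 5. After correction for GC content and length 4 of the 5 were called lower in ZM11-kd1 and 3 in ZM11-kd2. Of all genes, 39.8% and 36.9% were called lower with TMM scaling, and of the longest 10% of genes, where all 5 lie, 64.8% and 53.5%. Their summed level went from 42.5 and 42.0 CPM per kilobase in the control libraries to 17.8 and 17.3 in ZM11-kd1 and 23.3 and 26.7 in ZM11-kd2. The groups did not overlap, with control highest and ZM11-kd1 lowest.

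SETD2, the trimethylating enzyme (chr3:47016428-47164113, minus strand), was at 104 and 104 CPM in control cells, 47.4 and 50.1 CPM in ZM11-kd1 and 80.3 and 90.8 CPM in ZM11-kd2. It fell to 46.7% of control in ZM11-kd1 (log2 -1.10, SE 0.07, adjusted p = 1.42e-09) and to 81.9% in ZM11-kd2 (log2 -0.29, SE 0.07, adjusted p = 0.00114). After correction for GC content and length the log2 value was -0.41 in ZM11-kd1 and 0.047 in ZM11-kd2 (adjusted p = 0.453), so its direction in ZM11-kd2 depended on that choice.

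NSD2, a dimethylating enzyme (chr4:1871393-1982207, plus strand), was at 274 and 267 CPM in control cells, 77.5 and 75.4 CPM in ZM11-kd1 and 83.1 and 98.2 CPM in ZM11-kd2. All 4 knockdown libraries were far below control and close to each other. It kept 28.2% of the control level in ZM11-kd1 (log2 -1.82, SE 0.07, adjusted p = 1.00e-11) and 33.5% in ZM11-kd2 (log2 -1.58, SE 0.07, adjusted p = 6.82e-11).

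NSD1 (chr5:177131830-177300213, plus strand) was at 132 and 132 CPM in control cells, 45.3 and 40.2 CPM in ZM11-kd1 and 59.3 and 68.9 CPM in ZM11-kd2. It kept 32.3% of control in ZM11-kd1 (log2 -1.63, SE 0.08, adjusted p = 8.39e-11) and 48.4% in ZM11-kd2 (log2 -1.05, SE 0.07, adjusted p = 1.16e-08). The 3 groups did not overlap. The corrected log2 values were -0.90 and -0.59.

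NSD3, on chromosome 8, was at 116 and 119 CPM in control cells, 77.9 and 74.6 CPM in ZM11-kd1 and 82.2 and 88.8 CPM in ZM11-kd2. It had the smallest fall of the 5 in ZM11-kd1, to 65.0% of control (log2 -0.62, SE 0.06, adjusted p = 1.98e-07), and was at 72.8% in ZM11-kd2 (log2 -0.46, SE 0.06, adjusted p = 6.39e-06). With GC content and length corrected for, the log2 value was 0.087 in ZM11-kd1 (adjusted p = 0.126) and -0.13 in ZM11-kd2 (adjusted p = 0.0222). NSD3 shares 545 exonic bases with DDHD2 on the opposite strand, a gene with 1694 to 2642 counts a library, so part of its counts is uncertain.

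ASH1L (chr1:155335268-155563162, minus strand) was at 111 and 107 CPM in control cells, 48.4 and 46.6 CPM in ZM11-kd1 and 76.3 and 90.0 CPM in ZM11-kd2. It fell to 43.7% of control in ZM11-kd1 (log2 -1.19, SE 0.07, adjusted p = 1.63e-09) and to 76.5% in ZM11-kd2 (log2 -0.39, SE 0.07, adjusted p = 2.12e-04). Its corrected log2 value was -0.52 in ZM11-kd1, and the ZM11-kd2 call was lost at -0.05 (adjusted p = 0.451).

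The make-up of the methyltransferase RNA changed along with its amount. NSD2 took 31.7 and 31.2% of the summed level per kilobase in control cells, 21.4 and 21.4% in ZM11-kd1 and 17.5 and 18.1% in ZM11-kd2. The share of SETD2 went from 17.2 and 17.4% to 18.6 and 20.2% in ZM11-kd1 and 24.0 and 23.8% in ZM11-kd2. The share of NSD3 was 17.8 and 18.6% in control cells, 28.7 and 28.2% in ZM11-kd1 and 23.1 and 21.8% in ZM11-kd2. Per kilobase of all exons, NSD2 was thus the leading gene of the 5 in control cells and NSD3 in ZM11-kd1, while ASH1L, SETD2 and NSD3 lay between 21.8 and 24.5% in ZM11-kd2. That order depended on the length used: with the longest transcript NSD2 led in all 3 groups, at 31.6 CPM per kilobase in control cells, 8.92 in ZM11-kd1 (NSD3 7.08) and 10.6 in ZM11-kd2 (SETD2 10.0). These shares were not tested.

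**Figure D3:**
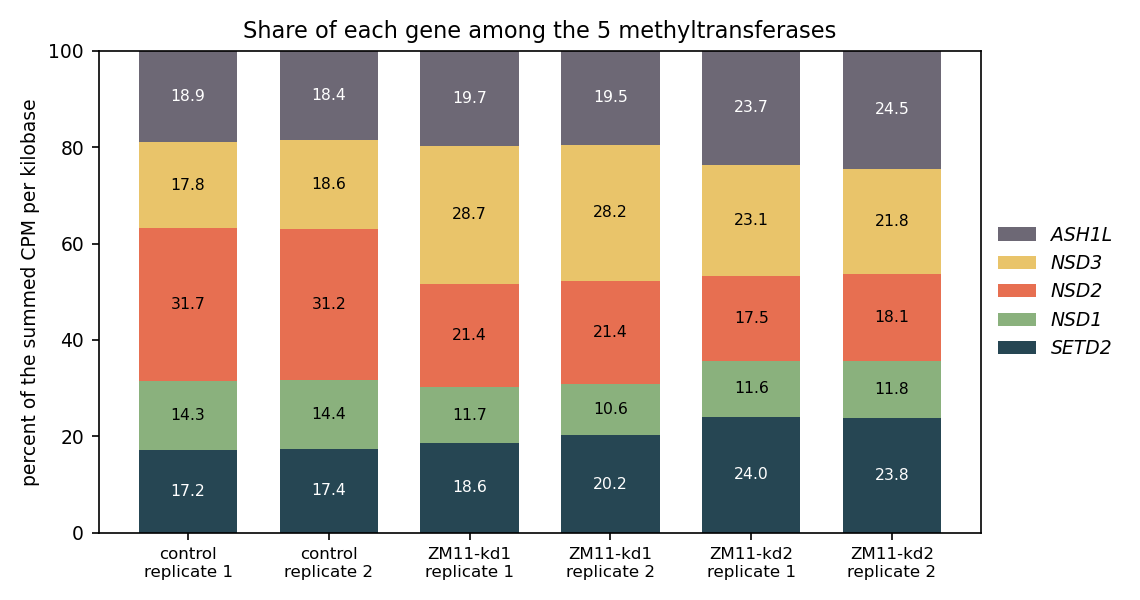
Share of each methyltransferase in the summed CPM per kilobase of all 5, in percent, one bar per library. NSD2 went from 31.7 and 31.2% in the control libraries to 17.5 to 21.4% in the knockdown libraries.

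The further readers ZMYND8 and PSIP1 moved less than ZMYND11. ZMYND8, a bromodomain, PWWP and MYND protein related to ZMYND11 (chr20:47209214-47356889, minus strand), was at 44.7 and 44.3 CPM in control cells, 26.5 and 28.2 CPM in ZM11-kd1 and 39.0 and 40.3 CPM in ZM11-kd2. It fell to 61.5% of control in ZM11-kd1 (log2 -0.70, SE 0.07, adjusted p = 3.84e-07). That log2 value ran from -1.06 to -0.35 over the 15 alternative settings. In ZM11-kd2 it was at 89.0% (log2 -0.17, SE 0.07, adjusted p = 0.0408), a call that 10 of 15 other ways of processing lost, among them leaving out either control library, either ZM11-kd1 library or replicate 1 of ZM11-kd2 (log2 -0.15 to -0.17).

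PSIP1 encodes LEDGF, whose PWWP domain binds methylated lysine 36 and which tethers HIV integrase and the MLL complex to chromatin (chr9:15464066-15510995, minus strand). It was at 153 and 155 CPM in control cells, 163 and 157 CPM in ZM11-kd1 and 140 and 136 CPM in ZM11-kd2. In ZM11-kd1 the log2 fold change was 0.05 with a 95% interval of -0.06 to 0.16 (adjusted p = 0.377), and in ZM11-kd2 PSIP1 fell to 89.6% of control (log2 -0.16, SE 0.05, adjusted p = 0.0128). That call was lost without control replicate 1 (-0.17, edgeR adjusted p = 0.0701) or replicate 2 (-0.15, adjusted p = 0.102). The ZM11-kd1 value depended on scaling: it was -0.30 (adjusted p = 7.23e-05) with library totals alone and 0.46 (adjusted p = 1.14e-07) after correction for GC content and length.

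The knockdowns were also compared with each other. All 10 genes were called in ZM11-kd2 against ZM11-kd1, 6 as higher and 4 as lower, against 68.8% of all genes, 34.9% as higher and 33.8% as lower. The split was 6 higher and 2 lower with library totals alone, and 4 higher and 5 lower after correction for GC content and length. None of the 10 overlapped between the knockdowns, which held for 83.1% of all genes. A fold of at least 1.5 was reached by 4 of them, SETD2, ASH1L, H3-3A and H3-3B, and by 44.8% of all genes. SETD2 and ASH1L were higher in ZM11-kd2, at log2 0.81 each (SE 0.07, adjusted p = 7.85e-08 for SETD2, and SE 0.07, adjusted p = 2.35e-07 for ASH1L). NSD1 and ZMYND8 were higher by 0.58 (SE 0.08, adjusted p = 1.13e-05) and 0.53 (SE 0.07, adjusted p = 1.04e-05). Over the 15 alternative settings SETD2 ran from 0.46 to 1.00 and ASH1L from 0.46 to 0.99. Their lowest values were under a fold of 1.5. NSD1 ran from 0.31 to 0.77 and ZMYND8 from 0.33 to 0.72. The H3.3 genes were lower in ZM11-kd2, by -1.16 for H3-3A (SE 0.05, adjusted p = 1.11e-10) and -1.29 for H3-3B (SE 0.06, adjusted p = 9.95e-11). NSD2 was higher by 0.25 (adjusted p = 0.00664) and NSD3 by 0.16 (adjusted p = 0.0242), calls that were lost without ZM11-kd1 replicate 2 (0.23 and 0.14). After correction for GC content and length the NSD2 call was lost as well (0.11, adjusted p = 0.0902) and NSD3 was lower (-0.22, adjusted p = 0.00101). For NSD3 the call was also lost without ZM11-kd1 replicate 1 (0.20) or ZM11-kd2 replicate 2 (0.11). PSIP1 was lower by -0.21 (adjusted p = 0.00231), and by -0.03 with library totals alone (adjusted p = 0.675). The difference in ZMYND11 itself was -0.28 (SE 0.07, adjusted p = 0.00265), with a range over scalings from -0.10 with library totals alone (adjusted p = 0.259) to -0.73 after correction for GC content and length (adjusted p = 3.43e-08).

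**Figure D4:**
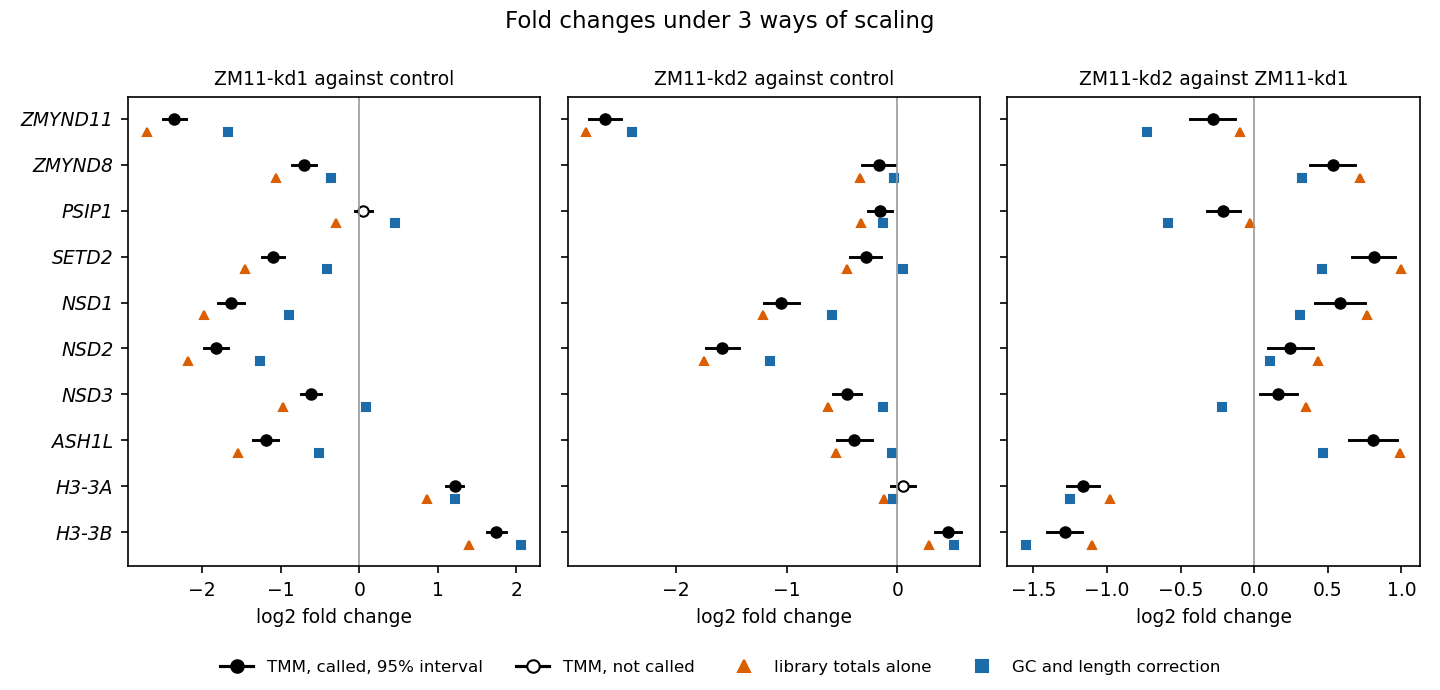
Log2 fold change of each gene in the 3 comparisons. Circles with 95% intervals are the edgeR estimates with TMM scaling (filled where the adjusted p was below 0.05), triangles the values with library totals alone and squares those after correction for GC content and length; NSD3 in ZM11-kd1, SETD2 in ZM11-kd2 and NSD3 in ZM11-kd2 against ZM11-kd1 lie on the other side of 0 after the correction, and so does H3-3A in ZM11-kd2.

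Fold changes went with transcript length across all genes, and the methyltransferases are long. ZMYND11 and the 5 methyltransferases are among the longest 10% of genes tested, those with more than 11812 exonic bases, with exonic lengths from 12925 bases for ZMYND11 to 21794 bases for NSD1. Among them the median log2 fold change over 1595 genes was -0.67 in ZM11-kd1 and -0.34 in ZM11-kd2, and 64.8% and 53.5% of these genes were called lower. The shortest 10% had medians of 0.72 and 0.16. Across 15950 genes Spearman's rho between log2 fold change and length was -0.29 in ZM11-kd1 and -0.13 in ZM11-kd2. With GC content it was 0.19 in ZM11-kd1 and -0.03 in ZM11-kd2. For ZM11-kd2 against ZM11-kd1, rho was 0.24 with length and -0.30 with GC content. These values describe genes that share libraries and are not independent. ZMYND11 and PSIP1 were low in GC content, above only 15.9 and 15.1% of genes. The correction took GC content and length together, and their separate parts were not tested. Set beside the median of the longest 10%, NSD3 in ZM11-kd1 (-0.62) and SETD2 and ASH1L in ZM11-kd2 (-0.29 and -0.39) were near it, whereas NSD2 and NSD1 were below it in both knockdowns. After correction for GC content and length, NSD2 was at -1.26 in ZM11-kd1 and -1.15 in ZM11-kd2. H3-3A and H3-3B were at 1.22 and 2.06 in ZM11-kd1 after the same correction. The part that RNA quality or library preparation had in the length trend was not tested.

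**Figure D5:**
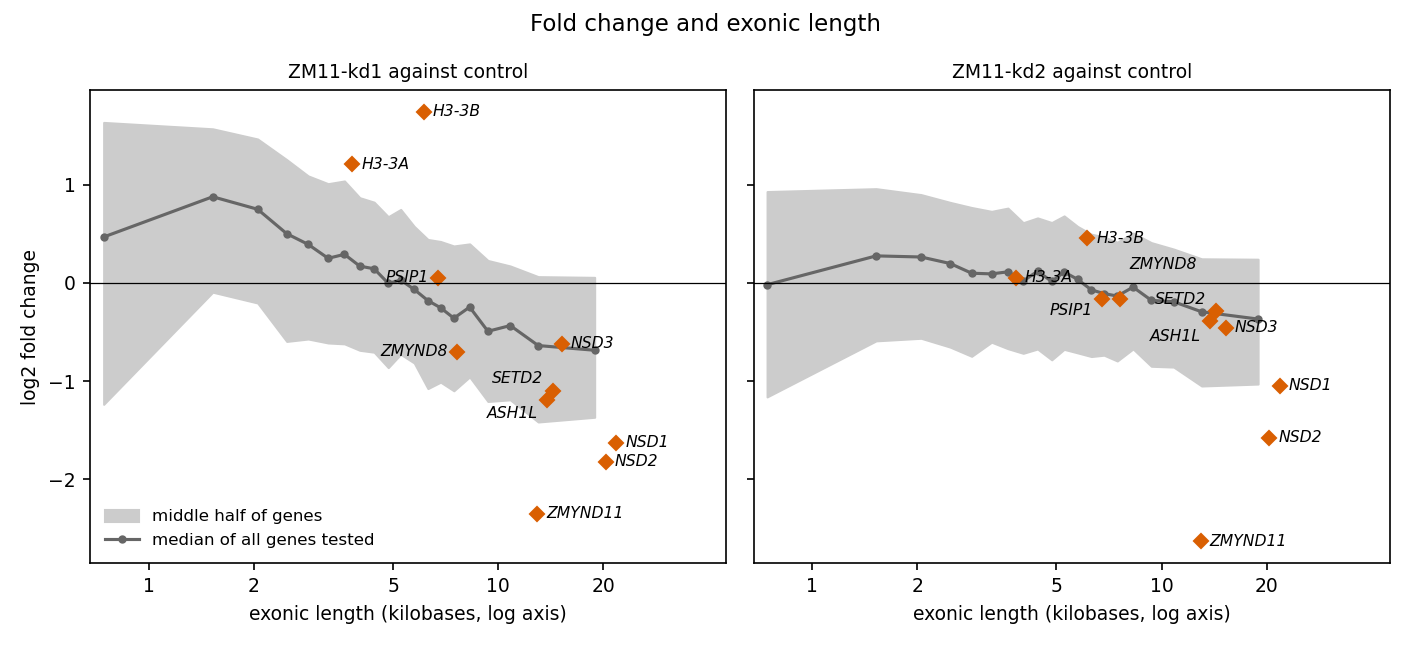
Log2 fold change against exonic length in kilobases (log axis) for each knockdown against control. The line joins medians of 20 groups of genes of rising length, the band holds the middle 50% of genes in each group and diamonds are the 10 genes; the medians tend to fall with length, with rises between some neighbouring groups, ZMYND11 lies below the band in both panels, and NSD1 and NSD2, longer than the median of the last group, lie below its median.

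The wider machinery of the mark was described from 6 lists with 50 genes, of which 49 were tested. In ZM11-kd1 44 were called (11 higher, 33 lower) and in ZM11-kd2 40 (15 higher, 25 lower), beside the shares of all genes given above. In ZM11-kd2 the split was 10 higher and 27 lower with library totals alone, and 18 higher and 19 lower after correction for GC content and length. Their median log2 fold change was -0.45 in ZM11-kd1 and -0.16 in ZM11-kd2.

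Among the other lysine 36 methyltransferases, both tested genes fell in both knockdowns. Of all genes, 39.8% were called lower in ZM11-kd1 and 36.9% in ZM11-kd2. SMYD2, which also methylates p53, went from 13.7 and 13.0 CPM in control cells to 8.83 and 8.82 CPM in ZM11-kd1 and 4.59 and 4.52 CPM in ZM11-kd2 (log2 -0.60, SE 0.12, adjusted p = 2.88e-04, and -1.55, SE 0.12, adjusted p = 3.96e-08). SETMAR, a fusion of a SET domain and a transposase, fell by 0.79 and 0.91 on the log2 scale. PRDM9, the enzyme of meiotic recombination sites, had at most 1 count in any library.

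Of the 4 genes that work with SETD2 in elongation, 2 rose and 2 fell in each knockdown. Of all genes, 38.2% were called higher and 39.8% lower in ZM11-kd1, and 36.5% and 36.9% in ZM11-kd2. POLR2A, the largest subunit of RNA polymerase II, had 3484 and 3382 counts in control cells, 809 and 507 in ZM11-kd1 and 1990 and 2958 in ZM11-kd2. The libraries of a knockdown differed more for POLR2A than for any of the 10 genes, and the log2 fold changes were -2.44 (SE 0.17, adjusted p = 5.07e-09) and -0.65 (SE 0.15, adjusted p = 0.00133). Without ZM11-kd2 replicate 1 or replicate 2 POLR2A fell by 0.37 or by 1.00, and DESeq2's test gave an adjusted p of 0.0541. HNRNPL, an RNA-binding partner of SETD2, fell by 1.27 and 0.96. IWS1, an elongation factor that brings SETD2 to the polymerase, rose by 0.71 and 0.69.

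Of 8 lysine 36 demethylases, 0 were called higher, 6 lower and 2 not called in ZM11-kd1, a count of calls near the 78.0% of all genes. In ZM11-kd2, 2 were higher, 4 lower and 2 not called, beside 73.4% of all genes called. By direction, 38.2% of all genes were higher and 39.8% lower in ZM11-kd1, and 36.5% and 36.9% in ZM11-kd2. KDM8 fell to 45.6 and 35.3% of control, RIOX1 fell by 0.50 and 1.16 and KDM2B by 0.77 and 0.88 on the log2 scale, although KDM8 rested on 46 to 125 counts a library and the RIOX1 call in ZM11-kd1 was lost without control replicate 2 (-0.27) or ZM11-kd1 replicate 1 (-0.41). RIOX1 was at -1.23 in ZM11-kd1 after correction for GC content and length. KDM2B ran from -1.13 to -0.38 in ZM11-kd1 and from -1.05 to -0.54 in ZM11-kd2 over the 15 alternative settings.

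The 18 other readers went in both directions, with 5 higher and 12 lower in ZM11-kd1 and 7 higher and 8 lower in ZM11-kd2. Over all genes 38.2% were higher and 39.8% lower in ZM11-kd1, and 36.5% and 36.9% in ZM11-kd2. DNMT3B, a DNA methyltransferase that binds the mark through a PWWP domain, had 520 and 626 counts in control cells, 34 and 37 in ZM11-kd1 and 90 and 84 in ZM11-kd2. It fell by 4.05 (SE 0.18, adjusted p = 3.36e-11) and 2.90 (SE 0.15, adjusted p = 4.23e-10) on the log2 scale. MSH6, the mismatch repair protein with a PWWP domain, fell by 2.53 and 1.68, and by 1.80 and 1.26 after correction for GC content and length. MSH6 is known to be expressed most in dividing cells, and the cycling cell markers fell alongside (median log2 -4.50 in ZM11-kd1 and -3.68 in ZM11-kd2), but their part in these values was not tested.

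MORF4L1 (MRG15), a chromodomain reader found in histone acetyltransferase and deacetylase complexes, moved the other way. It went from 204 and 208 CPM in control cells to 833 and 840 CPM in ZM11-kd1 and 638 and 629 CPM in ZM11-kd2. The rises were 2.02 (SE 0.05, adjusted p = 1.62e-13) and 1.62 (SE 0.05, adjusted p = 2.24e-12) on the log2 scale. All 4 knockdown libraries exceeded both control libraries by a wide margin. The 2 annotated copies of MORF4L1 with a row in the matrix had 0 to 6 counts a library.

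Of 9 H3.3 chaperones, 3 were called higher and 5 lower in ZM11-kd1 and 4 higher and 4 lower in ZM11-kd2, beside 78.0% and 73.4% of all genes called. The paralogs ASF1A and ASF1B, which hand H3 and H4 dimers to other chaperones, moved in opposite directions. ASF1A rose from 30.4 and 29.4 CPM to 78.9 and 83.3 CPM in ZM11-kd1 and 66.2 and 63.6 CPM in ZM11-kd2 (log2 1.44, SE 0.07, adjusted p = 5.19e-11, and 1.12, SE 0.07, adjusted p = 1.29e-09). ASF1B, the form known from dividing cells, fell from 55.9 and 56.6 CPM to 5.03 and 3.75 CPM in ZM11-kd1 and 6.24 and 6.28 CPM in ZM11-kd2 (log2 -3.67, SE 0.11, adjusted p = 1.36e-12, and -3.17, SE 0.11, adjusted p = 5.45e-12). Here too the part of the fall in cycling cell markers was not tested. UBN2, a subunit of the HIRA complex that deposits H3.3, fell by 1.84 and 0.93. HIRA, the subunit that gives the complex its name and was added here after its values were seen, was counted 296 and 374 times in control cells, 1093 and 1004 times in ZM11-kd1 and 632 and 560 times in ZM11-kd2. It rose by 1.60 and 0.64 on the log2 scale (edgeR adjusted p = 3.11e-09 and 9.58e-05). Correction for GC content and length put HIRA at 1.33 and 0.62, UBN2 at -1.10 and -0.62, and ASF1B at -4.44 in ZM11-kd1.

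Of 8 protein partners of ZMYND11, ZMYND8 and PSIP1, 1 rose and 6 fell in ZM11-kd1, and 0 rose and 5 fell in ZM11-kd2. Among all genes, 38.2% were called higher and 39.8% lower in ZM11-kd1, and 36.5% and 36.9% in ZM11-kd2. NCOR1, a corepressor bound by the MYND domain of ZMYND11, fell by 1.00 and 0.94 on the log2 scale. POGZ, a partner of LEDGF, fell by 1.01 and 0.79. KMT2A (MLL1), which LEDGF tethers to chromatin, fell by 0.83 and 0.56. These 3 genes also have more than 11812 exonic bases, and correction for GC content and length moved NCOR1 to -0.30 and -0.56 and POGZ to -0.45 and -0.49. The KMT2A calls were lost after it (-0.02 and -0.01).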

How the data were processed

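The deposited file is a single matrix of raw counts per gene symbol in 6 libraries, with no normalization by the authors and no rows for unassigned reads. By the study's methods and the submitters' processing notes, the authors used FastQC (0.11.9) for quality control, AdapterRemoval for trimming, STAR (2.7.9a) for alignment to the hg38 build and HTSeq (0.13.5) for counting. The annotation, strand setting and treatment of reads with several positions are not given in the sources used here, nor is the choice between poly(A) selection and removal of ribosomal RNA.

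All 6 libraries were fitted in 1 model of 3 groups with edgeR (4.0.16, R 4.3.3): filterByExpr with a minimum count of 10, TMM scaling, the quasi-likelihood F test and Benjamini-Hochberg adjustment over 16510 genes, called below 0.05. A self-test on simulated counts changed 195 of 16041 genes by 1 on the log2 scale. The edgeR test recovered 84.1% of them in ZM11-kd1 and 83.6% in ZM11-kd2. False calls made up 7.87 and 4.12% of its calls. That setting, with few genes changed, does not cover data in which most genes are called. CPM used TMM library sizes. Exonic lengths and positions came from GENCODE 44, which matched 32852 of 35322 symbols. Exonic lengths and GC content were known for 96.6% of genes tested. The 10 genes and all lists were chosen with earlier results of these data known. From each list, up to 3 genes with calls of 1 direction in ZM11-kd1 and ZM11-kd2 were named, by the largest absolute mean log2 fold change. Alternatives were DESeq2 (1.42.0), other scalings and filters, a fold of 1.5, a replicate block, a correction for GC content and length, and leaving out each library. The replicate numbers did not pair the libraries: correlations of replicate differences between groups ran from -0.0360 to 0.00111. Counts in the 2 libraries of each group differed beyond sampling noise. Their chi-square per degree of freedom was 2.33 in control cells, 3.83 in ZM11-kd1 and 10.1 in ZM11-kd2. The model used 1 spread per gene for all 3 groups and took no account of this difference.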

Additional observations from a re-analysis of the deposited data

Results flagged for a closer look

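The effects of the knockdowns against control differed from each other for all 10 genes, by the edgeR test of ZM11-kd2 against ZM11-kd1 itself, which called 68.8% of all genes tested. The log2 differences were 0.81 for SETD2, 0.81 for ASH1L, 0.58 for NSD1, 0.53 for ZMYND8, 0.25 for NSD2 and 0.16 for NSD3. They were -0.21 for PSIP1, -0.28 for ZMYND11, -1.16 for H3-3A and -1.29 for H3-3B. With a fold of at least 1.5 asked for as well, 4 of the 10 differed: SETD2, ASH1L, H3-3A and H3-3B. SETD2 and ASH1L did not reach that fold in every alternative setting, with lowest log2 differences of 0.458 and 0.465. The calls of NSD2, NSD3, PSIP1 and ZMYND11 were each lost in at least 1 alternative setting, and NSD3 changed sign after correction for GC content and length (-0.22).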

How the results depend on the processing

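In 15 alternative settings, 8 of the 9 calls in ZM11-kd1, 5 of 9 in ZM11-kd2 and 6 of 10 in ZM11-kd2 against ZM11-kd1 held in every one. With TMM scaling, a fold of at least 1.5 left 3 of the 10 genes called in ZM11-kd2 and 4 in ZM11-kd2 against ZM11-kd1. Of the 49 wider list genes tested it left 28, 25 and 11 in the 3 comparisons. The shares of all genes under that rule were 59.7, 51.1 and 44.8%. Leaving out 1 library left 9, 7 to 9 and 8 to 10 of the 10 genes called, and put IWS1 between -0.14 and 0.089 and NCOR1 between -0.058 and 0.16 in ZM11-kd2 against ZM11-kd1, with the sign changed without ZM11-kd2 replicate 2. Library totals alone moved the median of all genes by -0.35 in ZM11-kd1, -0.17 in ZM11-kd2 and 0.18 between the knockdowns, and the share of calls that were higher from 49.0, 49.8 and 50.8% to 35.3, 40.8 and 61.1%. PSIP1 in ZM11-kd1 (-0.30, adjusted p = 7.23e-05) and H3-3A in ZM11-kd2 (-0.12, adjusted p = 0.0324) then changed sign and were called lower. SETMAR (0.065), IWS1 (0.17) and KDM2B (0.071) changed sign in ZM11-kd2 against ZM11-kd1 and were not called.

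Correction for GC content and length turned NSD3 in ZM11-kd1 to 0.087, SETD2 in ZM11-kd2 to 0.047, H3-3A in ZM11-kd2 to -0.039, and, between the knockdowns, NSD3 to -0.22, NCOR1 to -0.26 and POGZ to -0.042. With the replicate block added these were 0.087, 0.046, -0.039, -0.22, -0.26 and -0.041. The replicate block alone, with numbers that mark no shared source, left 9, 8 and 10 of the 10 genes called and lost ZMYND8 in ZM11-kd2 (adjusted p = 0.0620). The cause of these changes was not tested.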
